A study of Mus musculus with 2 samples.

Results

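The genes described here encode the constitutive proteasome. They were chosen by name alone, as the array probes whose gene symbol starts with Psma, Psmb, Psmc or Psmd followed by a digit, without the interferon-induced Psmb8, Psmb9 and Psmb10. The rule found 37 genes among those on the array, with 61 probes, and 36 of them were among the 16698 genes measured in kidney. Of the 37, 31 are subunits of the 26S proteasome, 14 in the core particle and 17 in the regulatory particle. The remaining 6 share the naming only in part. Psmd5, Psmd9 and Psmd10 are chaperones that help to assemble the base of the regulatory particle and leave before it is complete. Psma8 and Psmb11 are core subunits of germ cells and of the thymus. Psmc3ip is a recombination factor and no proteasome subunit, so the label does not hold for it.

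Kidney RNA came from male CD-1 mice, 7 weeks old when the diets began per the labels, although the sample titles give 12 weeks. Both groups ate AIN-93G diet with 0.2% adenine, which gives a model of chronic kidney disease. One group ate this diet alone, and the other had 2% HMPA, 3-(4-hydroxy-3-methoxyphenyl)propionic acid, mixed into it, both for 1 week. The titles name 5 mice without saying whether they were pooled. Each of 2 arrays carried both conditions, with the HMPA sample red (Cy5) on array 1 and green (Cy3) on array 2. As the labels tie neither array to its own animals or extract, the pair was counted as 1 replicate hybridised with the dyes exchanged. No p-value can be had from this design, and the values after ± are the distance of each array from the mean of both. No kidney without adenine was on the arrays.

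The proteasome breaks down proteins that carry ubiquitin chains. Its core particle is a barrel of stacked rings, with α subunits (Psma genes) forming the gate and β subunits (Psmb genes) lining the chamber, and only Psmb5, Psmb6 and Psmb7 of the constitutive β subunits cut peptide bonds. The regulatory particle sits on the gate: the ATPases of its base (Psmc genes) unfold the substrate, and its lid (most Psmd genes) holds the deubiquitinase Psmd14, which removes the ubiquitin chain. Interferon and other inflammatory signals replace the cutting subunits with Psmb8, Psmb9 and Psmb10 to form the immunoproteasome. The transcription factor NFE2L1 is known to raise subunit genes together when proteasome activity is short.

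Because the constitutive and induced cutting subunits are paralogs, the probes that tell them apart are shown first. Each is a 60-base oligonucleotide of the array, 5′ to 3′, and capitals mark bases that are identical in the probe of its paralog when both are laid side by side without gaps. The Psmb5 probe lies at chr14:55233161-55233220 and the Psmb8 probe at chr17:34337771-34337830. The Psmb6 probe lies at chr11:70341014-70341073 and the Psmb9 probe at chr17:34319174-34319233 (all build mm9, as the files give them, with no annotation of that build used here).
Psmb5: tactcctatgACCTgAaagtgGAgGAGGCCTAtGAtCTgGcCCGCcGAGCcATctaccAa
Psmb8: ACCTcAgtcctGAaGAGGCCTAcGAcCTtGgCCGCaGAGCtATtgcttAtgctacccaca
Psmb6: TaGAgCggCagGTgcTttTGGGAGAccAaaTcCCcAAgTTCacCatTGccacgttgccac
Psmb9: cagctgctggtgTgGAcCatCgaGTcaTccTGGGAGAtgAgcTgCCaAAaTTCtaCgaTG
Over the stretch that overlaps, Psmb5 and Psmb8 share 31 of 50 bases and Psmb6 and Psmb9 share 27 of 48. The probe pairs therefore differ at 19 and 21 bases of the overlap. Binding of one transcript to the probe of the other was not tested. The Psmb7 probe spans chr2:38468966-38489385, a stretch far longer than the oligonucleotide, and shares 23 of 56 bases with the Psmb10 probe.

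With HMPA, the 31 subunit genes of the 26S proteasome chosen by name lay close to their level on adenine alone. Their mean log2 ratios ran from −0.33 for Psmb3 to 0.62 for Psmb7, and had a median of 0.16, against a median of −0.04 over all genes. The subunit median of array 1 was 0.07 and that of array 2 was 0.06. Of all 16698 genes, 60.2% fell within that same range. None of the 31 subunits met the 2-fold rule, which asks for a mean of at least 2-fold and 1.5-fold the same way on each array. The share of all genes that did was 6.64% for higher (1109 genes) and 7.72% for lower (1289 genes), and median centring made these 749 and 1973 genes. The 1.5-fold rule asks for a mean log2 ratio of at least 0.58 (1.5-fold), and at least 0.32 the same way on each array. By it, 1 of the 31 subunits (Psmb7) was higher and 0 lower, against 13.5% and 16.2% of all genes. With median centring none of the 31 subunits met either rule. With array 1 alone 4 of them were at least 1.5-fold higher, against 2351 of all 16698 genes. With array 2 alone 5 were, against 2539 of all genes. In bulk kidney RNA, fewer cells of a type and less RNA per cell cannot be told apart.

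**Figure D1:**
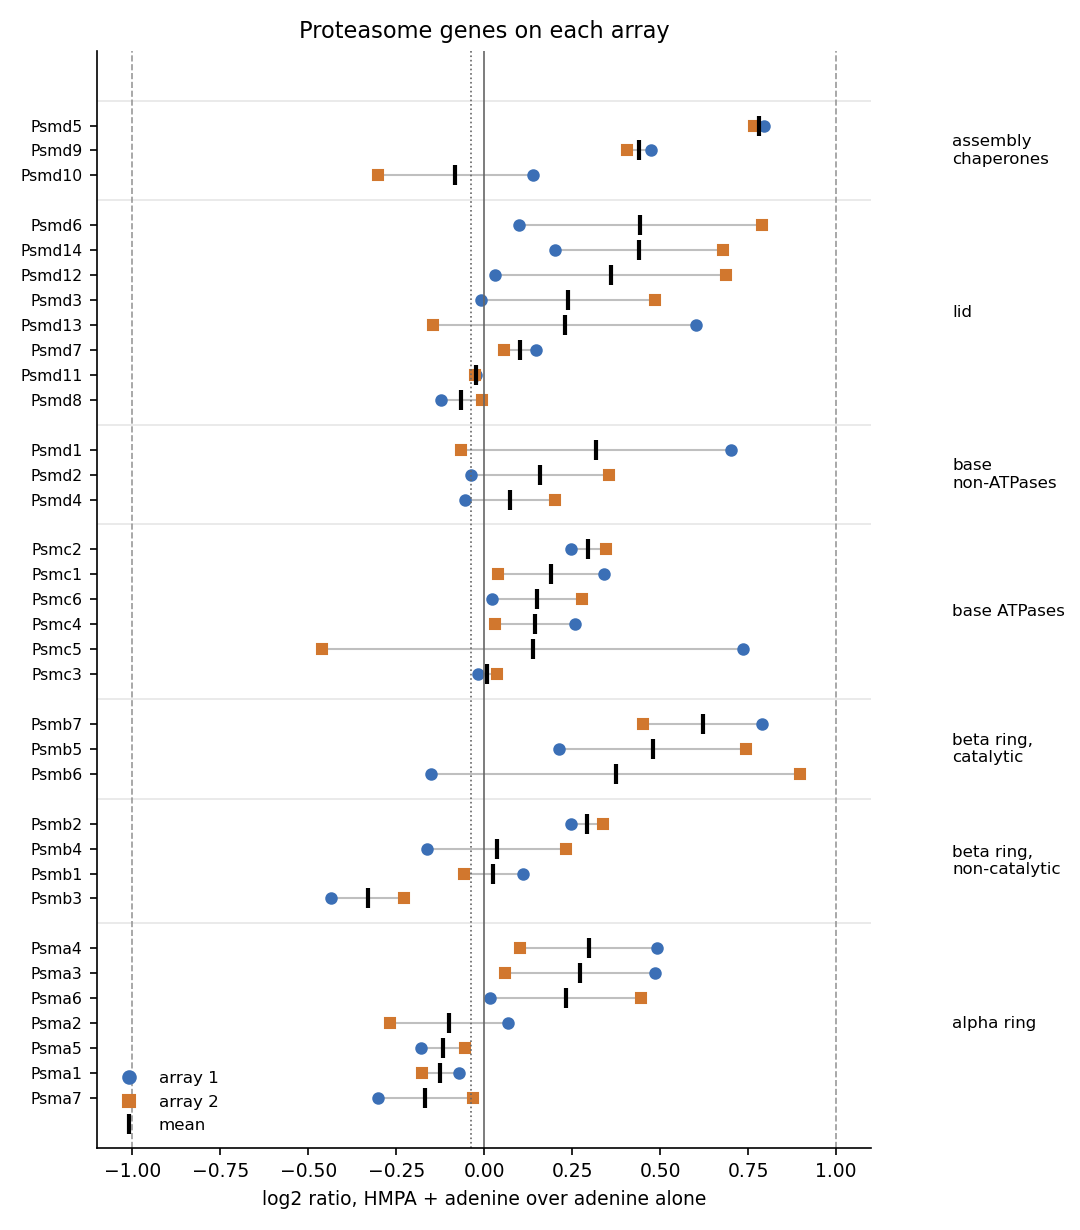
Log2 ratio of HMPA with adenine over adenine alone for the 31 subunits and the 3 assembly chaperones with Psmd names, as circles (array 1), squares (array 2) and bars (mean of both). Dashed lines mark 2-fold and the dotted line the median of all genes at −0.04; every mean lies between −0.33 and 0.78.

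The arrays did not always give a subunit the same direction. Of the 31 subunits, 14 were above 0 on both arrays (45.2%, against 35.9% of all genes), 6 were below 0 on both (42.9% of all genes) and 11 had opposite signs. Across the subunits the ratios of array 1 and array 2 had r = −0.101 (Spearman 0.02, n = 31 genes), against r = 0.889 across all genes. These are descriptions across genes that share the same 2 hybridisations. The standard deviation of the subunits' mean ratios was 0.22 and that of the halved difference between arrays 0.24, so subunits varied among themselves by no more than the arrays differed for 1 subunit. With Feature Extraction's own ratios, the scanner software's background and dye correction, 23 subunits were above 0 on both arrays (42.2% of all genes were) and r was 0.358. With median centring in place of loess, 2 were (19.3% of all genes), and the subunits' median was −0.35 on array 1 and 0.22 on array 2.

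**Figure D2:**
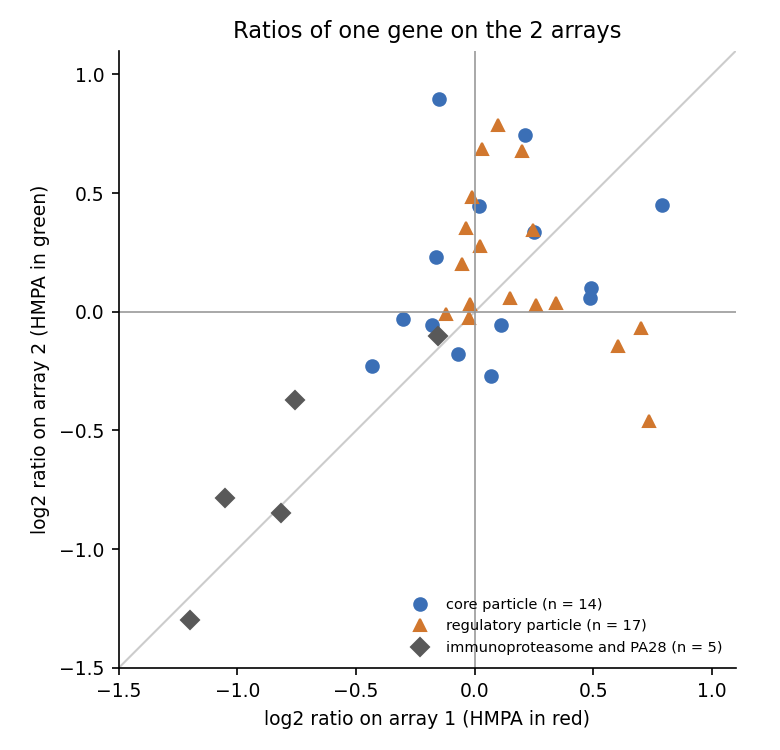
Log2 ratio on array 1 (horizontal) against array 2 (vertical) for 14 core subunits, 17 regulatory subunits and 5 genes of the immunoproteasome and its activator PA28. Of the 31 constitutive subunits, 24 had a mean above 0 and 7 below, with r = −0.101 between the arrays. Over all genes, 7701 had a mean above 0 and 8997 below. The 5 genes of the immunoproteasome and PA28 lie below 0 on both arrays.

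The core and the regulatory particle had similar medians. The median log2 ratio was 0.13 for the 14 core genes (0.04 on array 1 and 0.08 on array 2) and 0.16 for the 17 regulatory genes (0.10 and 0.06). The core minus the regulatory median was −0.06 on array 1 and 0.02 on array 2, so the arrays placed the particles in opposite order. The core genes were more spread, with a standard deviation over genes of 0.28 against 0.15. Relative to the median of all genes, both particles lay above 0 under each setting tried, by 0.07 to 0.26 for the core and 0.10 to 0.27 for the regulatory particle. The 0.07 came from grouping by name alone, which adds Psma8 to the core. With only 1 replicate per condition this shift has no test.

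**Figure D3:**
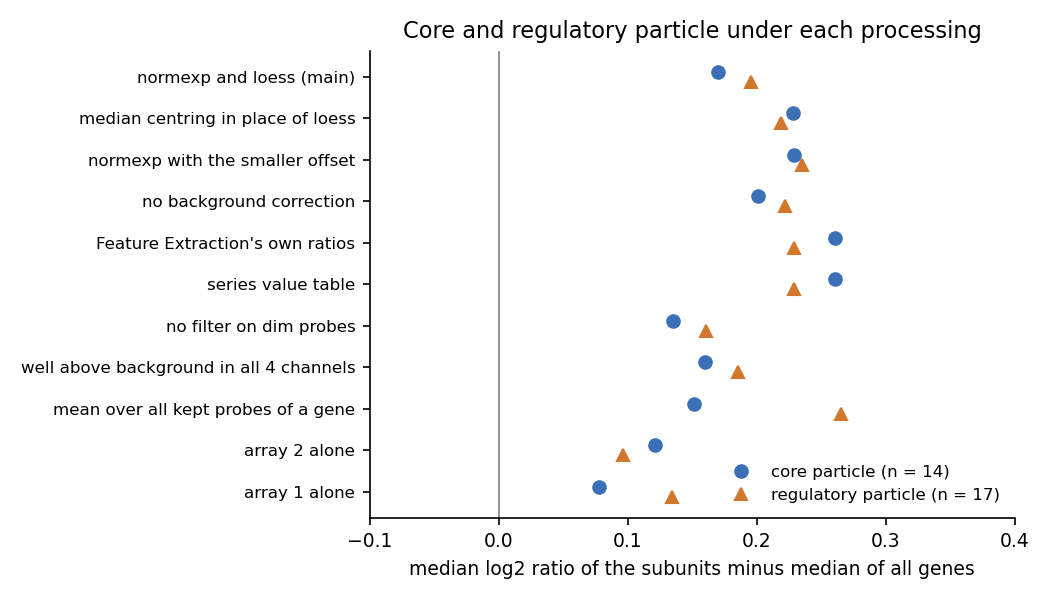
Median log2 ratio of the core particle (circles) and of the regulatory particle (triangles) minus the median of all genes, for the main processing and for the alternatives to it, without the grouping by name alone. Values lie between 0.08 and 0.27, and the order of the particles changes from setting to setting.

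Within the core, the α ring had a median of −0.10 and the β ring of 0.29. Psma4 was the highest α subunit, at 0.49 on array 1 and 0.10 on array 2 (0.30 ± 0.19). Psma3 was 0.27 ± 0.21 and Psma6 0.23 ± 0.21. The lowest was Psma7 (−0.17 ± 0.14), followed by Psma1 (−0.12 ± 0.05), Psma5 (−0.12 ± 0.06) and Psma2 (−0.10 ± 0.17). With Feature Extraction's ratios Psma7 was 0.04. The α subunits above 0 and those below it differed by less than 1.5-fold in the mean of both arrays. On array 1 alone Psma4 (0.49) and Psma7 (−0.30) were farther apart than that, and on array 2 alone Psma6 (0.45) and Psma2 (−0.27) were.

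By the mean of both arrays, the 3 cutting subunits had the highest ratios of the β ring. On array 1 alone Psmb2 (0.25) was above Psmb5, and both Psmb1 (0.11) and Psmb2 were above Psmb6. Psmb7, with trypsin-like activity, was 0.79 on array 1 and 0.45 on array 2 (0.62 ± 0.17, 1.54-fold). Its spot signals were 1069 on adenine and 1053 on HMPA on array 1, and 1198 and 1765 on array 2. These raw signals are before dye correction, and the red channel, which held HMPA on array 1 and adenine on array 2, was the dimmer overall. Median centring gave Psmb7 0.37, short of the 1.5-fold rule, as was its value on array 2. Psmb5, with chymotrypsin-like activity and the target of proteasome inhibitor drugs, was 0.21 on array 1 and 0.74 on array 2 (0.48 ± 0.27), with signals of 6078 and 4495 on array 1 and 4819 and 9730 on array 2. Psmb6, with caspase-like activity, was −0.15 on array 1 and 0.90 on array 2 (0.37 ± 0.52), so the arrays gave it opposite directions. Its signals were 7862 on adenine and 4556 on HMPA on array 1, and 4452 and 9982 on array 2. Psmb5 and Psmb7 were thus above 0 on both arrays, and for Psmb6 the distance of an array from the mean exceeded the mean.

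The β subunits that do not cut had a median of 0.03. Psmb2 was 0.25 on array 1 and 0.34 on array 2 (0.29 ± 0.04), while Psmb4 (0.04 ± 0.20) and Psmb1 (0.03 ± 0.08) had opposite signs on the arrays. Psmb3 was the lowest of all 31 subunits, at −0.43 and −0.23 (−0.33 ± 0.10), but its second probe read 0.0059 and 0.56 (mean 0.28). With the mean over both probes Psmb3 was −0.03.

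The immunoproteasome counterparts stood apart from the cutting subunits. Psmb8 was lower on both arrays, at −1.20 on array 1 and −1.30 on array 2 (−1.25 ± 0.05, 2.38-fold lower), and Psmb10 at −1.05 and −0.78 (−0.92 ± 0.13), while Psmb9 was −0.13 ± 0.03. The ratio of Psmb5 exceeded that of Psmb8 by 1.41 on array 1 and 2.04 on array 2 (3.31-fold), and Psmb7 exceeded Psmb10 by 1.84 and 1.24 (2.90-fold). Psmb6 exceeded Psmb9 by 0.0050 on array 1 and 1.00 on array 2, so for that pair 1 array showed no gap. With Feature Extraction's ratios the mean gaps were 1.81, 1.48 and 0.58. No test of these gaps is possible with 1 replicate per condition.

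**Figure D4:**
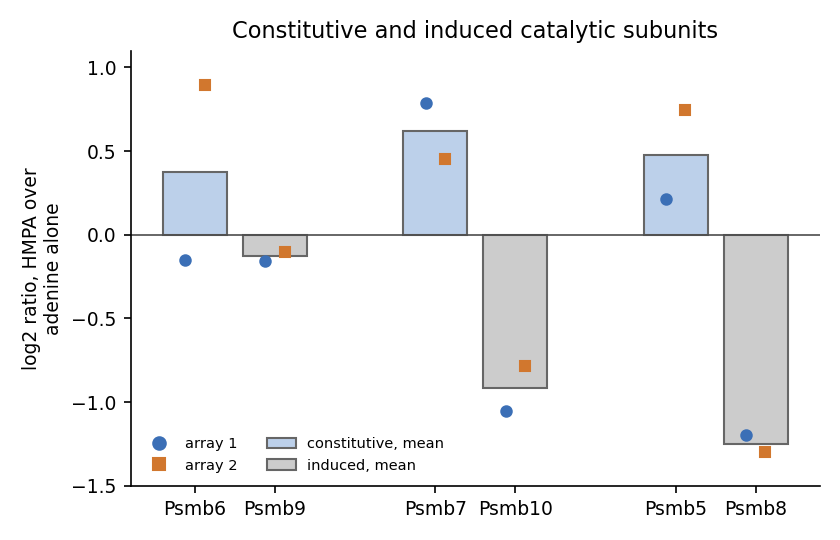
Log2 ratio of each constitutive cutting subunit (light blue bars) beside its induced counterpart (grey bars), with bars at the mean and points for array 1 (circles) and array 2 (squares). Psmb5 and Psmb7 lie above 0 on both arrays while Psmb8 and Psmb10 lie below, and Psmb6 has points on either side of 0.

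In the regulatory particle, all 6 ATPases of the base had means above 0, from 0.0077 for Psmc3 to 0.30 for Psmc2, with a median of 0.15. Psmc2 was 0.25 on array 1 and 0.34 on array 2 (0.30 ± 0.05). Psmc1 (0.19 ± 0.15), Psmc6 (0.15 ± 0.13) and Psmc4 (0.14 ± 0.11) were also above 0 on both arrays. Psmc5 was 0.74 on array 1 and −0.46 on array 2, the widest disagreement among the 31 subunits, while its dimmer second probe read 0.54 and 0.37 (mean 0.45). A second Psmc6 probe, dimmer than the first, read 0.77 and 1.12 (mean 0.94), so Psmc6 is uncertain. With the mean over its probes Psmc6 was 0.55, and with median centring Psmc3 was −0.23.

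All 3 base subunits without ATPase activity had opposite signs on the arrays. Psmd1, a scaffold for ubiquitin receptors, was 0.70 and −0.07 (0.32 ± 0.38). Psmd2, another scaffold, was −0.04 and 0.35 (0.16 ± 0.20), and the ubiquitin receptor Psmd4 was −0.05 and 0.20 (0.07 ± 0.13). With median centring Psmd4 was −0.13.

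The lid had a median of 0.23. Psmd6 was its highest member, at 0.10 on array 1 and 0.79 on array 2 (0.44 ± 0.35), next to the deubiquitinase Psmd14 at 0.20 and 0.68 (0.44 ± 0.24). A second Psmd14 probe gave 0.77 and 0.66. Psmd12 was 0.36 ± 0.33, and its other probes gave 0.48 and 0.44. For Psmd12 and Psmd14 each measured probe was therefore above 0 on both arrays. Psmd3 (0.24 ± 0.25) and Psmd13 (0.23 ± 0.37) had opposite signs on the arrays. Psmd7 was 0.10 ± 0.05, with other probes at −0.22 and −0.09. Psmd11 was −0.02 ± 0.0016 and Psmd8 −0.07 ± 0.06, the lowest of the lid genes with Psmd names.

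Among the members that are no subunits, Psmd5 had the highest ratio of all 36 measured. This chaperone, also called S5b, was 0.80 on array 1 and 0.77 on array 2 (0.78 ± 0.01, 1.72-fold), with signals of 758 on adenine and 728 on HMPA on array 1 and 702 and 1263 on array 2. It met the 1.5-fold rule, as did 13.5% of all genes. With median centring it was 0.49 and did not. Psmd9 was 0.47 and 0.41 (0.44 ± 0.03), and Psmd10, also called gankyrin, was 0.14 and −0.30 (−0.08 ± 0.22). The germ cell subunit Psma8 was 0.02 ± 0.17 and Psmc3ip −0.13 ± 0.30. Both probes of the thymus subunit Psmb11 were not well above background in either condition.

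Of the other genes of the pathway, most were near 0 by the same measure. The subunits of the regulatory particle with other names diverged: the ubiquitin receptor Adrm1 was 0.32 ± 0.17, while Sem1, the smallest lid subunit, was −0.93 and −0.89 (−0.91 ± 0.02, 1.88-fold lower). Sem1 met the 1.5-fold rule as lower under each setting tried. Of the 5 genes of the immunoproteasome and its activator PA28, 3 met that rule as lower and 0 as higher (median −0.83), including the PA28 subunit Psme2 (−0.83 ± 0.02). Over all genes the shares were 16.2% lower and 13.5% higher, and in lists this small a count of 0 or 1 is near them. Of the other activators and the inhibitor, 1 of 3 was higher: Psme4, encoding PA200, at 0.45 and 1.17 (0.81 ± 0.36), short of the rule on array 1 alone and with median centring; the inhibitor Psmf1 was −0.02 ± 0.15. Of 5 measured assembly factors with other names, 1 was higher, the core chaperone Psmg1 (0.76 ± 0.09, and 0.48 with median centring, short of the rule), and 0 lower, with the core maturation factor Pomp lowest at −0.20 ± 0.07. Paaf1 had no probe under that name. None of 4 deubiquitinases and ligases bound to the proteasome and none of 9 shuttle and extraction genes met the rule, with medians of 0.19 and 0.27. The deubiquitinases ran from 0.07 ± 0.07 for Uchl5 to 0.25 ± 0.08 for Usp14. With median centring Uchl5 was −0.13 and Usp14 −0.08. Vcp, the ATPase that pulls proteins out of complexes, was 0.41 ± 0.15 and its cofactor Nploc4 0.54 ± 0.10 (0.23 with median centring).

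**Figure D5:**
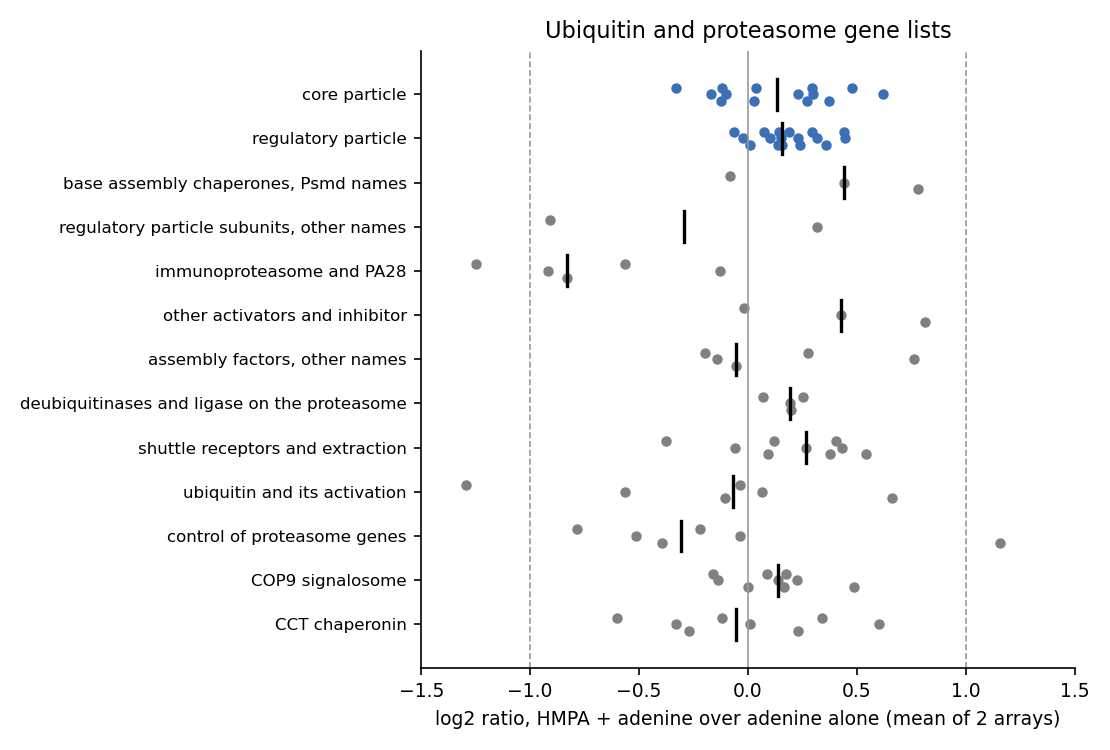
Mean log2 ratio of each measured gene (points) and the median (black bars) for the core particle, the regulatory particle and 11 other lists of the ubiquitin and proteasome system and of like complexes. Dashed lines mark 2-fold; the core and regulatory particle medians are 0.13 and 0.16, and that of the immunoproteasome and PA28 is −0.83.

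Some genes of ubiquitin and of proteasome gene control had mean ratios farther from 0 than any of the 31 subunits chosen by name. Of the ubiquitin genes, Ubb was −0.11 ± 0.12, and Rps27a, a fusion of ubiquitin with a ribosomal protein, was −1.29 ± 0.36. Nfe2l1 was −0.68 on array 1 and −0.88 on array 2 (−0.78 ± 0.10, 1.72-fold lower). Ngly1, which removes sugars from NFE2L1 so that it can act, was 1.16 and 1.15 (1.16 ± 0.0031, 2.23-fold higher), but short of 2-fold with median centring (0.84) and with the mean over its probes (0.89). The NFE2L1 relative Nfe2l2 was −0.39 ± 0.02, and Ddi2, the protease that cuts NFE2L1, −0.38 ± 0.29. With the mean over its probes Ddi2 was −0.02. The COP9 signalosome, whose subunits resemble those of the lid, had a median of 0.14 over 9 genes, with 0 meeting the 1.5-fold rule. Its genes ran from −0.16 ± 0.07 for Cops7b to 0.49 ± 0.02 for Cops3. With median centring Cops7b was −0.46 and Cops3 0.17. The CCT chaperonin, a folding complex, had a median of −0.05 over 8 genes, with Cct6a higher (0.60 ± 0.12) and Cct5 lower (−0.60 ± 0.03). With median centring neither met the rule (0.28 and −0.66), and Cct5 also missed it with Feature Extraction's ratios (−0.49).

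The promoters of 25 of the 31 subunits were matched by symbol in the RefSeq table (GRCm38.p6, 250 bases before to 50 after the gene start). The motif TGACNNNGC, the core of the antioxidant response element that NFE2L1 and NFE2L2 bind, was searched on both strands. It was found in 4 of the 25 (16%) and in 14% of all 27025 genes with a promoter there. The 4 were Psmb5, Psmb6, Psmc6 and Psmd12. The matches nearest to the gene start belonged to the cutting subunits Psmb5, at chr14:54618024-54618052 on the minus strand, and Psmb6, at chr11:70525338-70525356 on the plus strand, and are shown with the motif in capitals.
Psmb5 promoter: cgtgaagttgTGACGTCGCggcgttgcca
Psmb6 promoter: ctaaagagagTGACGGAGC
The median log2 ratio was 0.37 for the 4 genes with a match and 0.14 for the other 21. Psmb5, Psmb6, Psmc6 and Psmd12 were 0.21, −0.15, 0.02 and 0.03 on array 1. On array 2 they were 0.74, 0.90, 0.28 and 0.69, so the higher median came mostly from array 2. The difference was not tested. CCAAT, also searched on both strands, was found in 10 of the 25 (40.0%) and in 41.1% of all genes. Subunits with CCAAT had a median log2 ratio of 0.13 and those without it 0.16. A match describes the letters of this window and is no evidence of binding.

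Most cell type markers of leukocytes, fibroblasts and the proximal tubule had ratios farther from 0 than any of the 31 subunits. Of 9 measured leukocyte markers, 8 met the 2-fold rule as lower and 0 as higher (range −3.40 to −0.09), and their summed normalised signal with HMPA was 0.216 of that on adenine alone on array 1 and 0.211 on array 2. The B cell marker Cd79a was not well above background. All 3 fibroblast markers met the rule as lower, and all 5 proximal tubule markers as higher (range 1.75 to 2.73). The 5 proximal tubule markers were well above background in all 4 channels, which places the tissue as kidney with tubule cells. Of the dividing cell markers, 1 of 3, Mki67, was lower (−1.01 ± 0.21). Of 7 markers of other nephron parts, 2 met the rule as higher, Slc12a1 and Aqp2, and 0 as lower (range −0.70 to 1.22). None of 3 endothelial markers met it (range −0.28 to 0.51). Of 3 fat cell markers, 1, Adipoq, was lower (−2.18 ± 0.06). Over all genes the shares were 6.64% higher and 7.72% lower. The same sum over the 31 subunits was 1.01 on array 1 and 1.14 on array 2. The part of these shifts in the subunits' ratios was not tested.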

How the data were processed

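Two-colour arrays were scanned and quantified by the authors with Agilent Feature Extraction 12.2.0.7 per the file headers (9.5 per the submitters' processing notes). The deposited intensity columns, mean spot signal and median local background, were used as read. The authors' deposited log10 ratios of red over green were an alternative. The series value table holds the same log10 ratios, within 0.0050.

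Each array had 43379 spots that were no controls, with median signals of 34.0 to 64.6 over backgrounds of 22.0 to 25.0, and the number of arrays limits precision. limma 3.58.1 in R 4.3.3 applied normexp (offset 50) and loess, with 281 and 297 unreliable spots left out. Ratios were signed so that above 0 means higher with HMPA. A probe was used where at least 1 condition was well above background on both arrays (25138 of 41174 probes), which kept 53 of the 61 member probes. A gene took its brightest probe. All 31 subunits were above background in all 4 channels. The procedure was tested on simulated data.

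Rules of size replaced tests. In the dye contrast, the sign of array 2 was turned, so that condition cancels in the mean but not on each array. There 0 genes met the 2-fold rule and 20 the 1.5-fold rule. As the rules also ask for a size on each array, genes with a large diet difference could hardly be called. These counts may thus be too low. Values are given for the cutting subunits, members that met a rule, the highest and lowest of each group, and members whose probes disagreed; others are given to account for each member. Of other pathway genes, those that met the 1.5-fold rule and list extremes are named, and Vcp, Ubb and Nfe2l2 were added after their values were seen. One other pathway gene is not reported here. Members and lists were chosen with earlier results of these data known. Alternatives were median centring, a smaller offset (16), no background correction, the deposited ratios, other filters, the mean over probes and each array alone.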

Additional observations from a re-analysis of the deposited data

How the results depend on the processing

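No setting gave a subunit that met the 2-fold rule in either direction. The core median was 0.0072 with median centring, 0.18 with the smaller offset, 0.24 in both the scanner software's ratios and the series value table, and 0.035 with membership by name alone. The regulatory median was −0.0019 with median centring, 0.19 with the smaller offset, 0.205 in the software's ratios and the value table, and 0.24 with the mean over probes. Core minus regulatory was 0.0321 in the software's ratios and the value table, −0.11 with the mean over probes and −0.12 by name alone. Leaving out 1 array gave 0.0421 to 0.081 for the core, 0.0562 to 0.0983 for the regulatory particle and −0.0562 to 0.0248 for their difference. It also gave 4 to 5 subunits at least 1.5-fold higher, against 2351 to 2539 of all 16698 genes. With median centring 0 subunits were 1.5-fold higher, and the median of all genes moved from −0.04 to −0.22. Over all genes, 1109 were higher and 1289 lower at the 2-fold rule (749 and 1973 with median centring, 2043 and 2461 in the software's ratios), and at the 1.5-fold rule 2255 and 2699 (1302 and 3989, 3750 and 4149). The causes were not tested. For the 16 named members, 138 of 160 values moved by less than the spread between arrays. Values from 1 array alone could not move by more than that, and the other filters changed no value. Part of the count was thus fixed in advance, and it says little about how firm the values are. The alternatives for pathway genes that are no members were added after seeing the data. No paired analysis was possible because the ratio within each array already sets the conditions against each other, and the labels give no further number that pairs samples. Depth set no limit for the subunits, which were well above background in all 4 channels, but 8 of the 61 member probes, both of Psmb11 among them, were too dim to use.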

Other observations

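Of 12 subunits with several measured probes, the dimmer probe read higher than the brightest in 10 of 15 pairs, by a median of 0.10 on the log2 scale over all pairs. The gap was widest for Psmc6 (0.79), Psmb3 (0.61) and Psmd2, whose second probe gave 0.30 on array 1 and 0.94 on array 2. Only Psmc6 and Psmb3 had probes that differed by over 1.5-fold, and Psmb3, Psmd4 and Psmd7 had probes of opposite sign. The second Psmd4 probe was near background, with signals of 26.8 to 46.4 and a mean of −0.0011, so its sign says little. Dim probes of Psma3 and Psma7, with mean signals of 50.2 and 51.2, were counted among the pairs too. All values are descriptions of 1 replicate per condition.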
